A study of Populus tremula x Populus alba with 6 samples.

Results

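The peaks described here lay at poplar genes that the P. alba peak list named and the P. tremula peak list did not. They were chosen by the measured peak calls themselves: every peak of the P. alba list was kept whose assigned gene had no peak of any annotation class on P. tremula. This left 2711 of the 18975 P. alba peaks (14.3%), at 2426 of 13403 genes (18.1%). The same choice made the other way gave 1676 of 17040 P. tremula peaks (9.84%), at 1510 of 12487 genes (12.1%), and 10977 genes were named in both lists. Because the calls chose these peaks, their depth and fold are given below as description, and only their position was tested. The choice did not use position itself, though the gene assignment it used depends on where a peak lies.

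The material was Populus tremula x Populus alba, a hybrid poplar, from whose leaves mesophyll protoplasts (cells without walls) were made, with PtrbHLH011-10xMyc produced transiently. In the labels this applies to both library groups, 3 ChIP libraries recovered with anti-Myc and 3 input libraries with no antibody, so the inputs also came from cells producing the fusion. No further treatment, time or plant age is given for either group, the promoter driving the construct is not named, and no library from cells without it was analysed here. The peak lists carry no value of a single library, so none of the values below has a replicate error, the tests cover counting error over peaks only, and the labelled cell type could not be checked against expression.

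PtrbHLH011 belongs to the basic helix-loop-helix (bHLH) proteins, transcription factors that bind DNA as dimers, usually at the short E-box motif. In Arabidopsis, bHLH11 is known as a repressor within the network of bHLH factors that governs iron uptake. A hybrid tree carries 1 chromosome set from each parent, and reads of a locus can be placed on the sequence of either parent. A gene present in 1 peak list and missing from the other may still have signal below the calling threshold on the other sequence, which the lists do not hold. Start coordinates of 11423 transcript models, some genes having more than 1, could be compared between the lists. They differed by -7545 to 4013 bp, so the P. alba and P. tremula sequences have nearly the same coordinates. How these sequences were made is not given in the sources used here, and whether they are independent assemblies was not tested. The lists pair no gene identifier with a name or a function, so most peaks are given by position on the P. alba sequence, whose build is not given in the sources used here.

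Peaks at these genes were mostly shallow. The lowest summit held 5 reads, the median 6 and the highest 1931, against a median of 7 in the other 16264 P. alba peaks. Summits of 5 or 6 reads made up 54.6% of them (95% exact binomial interval 52.7 to 56.4%), against 46.6% (45.8 to 47.4%) of the other peaks. Their median fold over the caller's local background was 3.44 (25th to 75th percentile 3.02 to 3.71), against 3.52 (3.02 to 4.02). They were also shorter, with a median of 102 bp against 128 bp. The caller's q value was at or under 0.05 at 1661 of them, which is 61.3%, where the whole P. alba list had 72.6%. A q at or under 0.01 was reached by 767 (28.3%), where the whole list had 39.8%. At 1137 peaks (41.9%) the −log10 p value was below 4, against 27.1% of the other peaks. The lowest −log10 p was 3.03 among them and 3.00 anywhere in the P. tremula list, both just above 3.

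Read by depth, the shallowest P. alba peaks were most often at genes missing from P. tremula, with a second rise at middle depth. Of the 3280 P. alba summits with 5 reads, 20.2% (18.8 to 21.6%) were at genes missing from P. tremula. The share was 14.1% at 6 reads, 11.9% at 7 reads and 13.7% at 8 or 9 reads. It was 17.2% (15.5 to 18.9%) at 10 to 19 reads and fell to 8.35% (6.90 to 9.996%) at 20 to 49 reads. At 50 to 199 reads it was 3.94% (2.31 to 6.24%), and at 200 reads or more 6.63% (4.20 to 9.86%). On P. tremula the share was lower at 5 reads, at 12.4% (11.2 to 13.7%), and its highest value was 15.6% (14.0 to 17.4%), also at 10 to 19 reads.

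**Figure D1:**
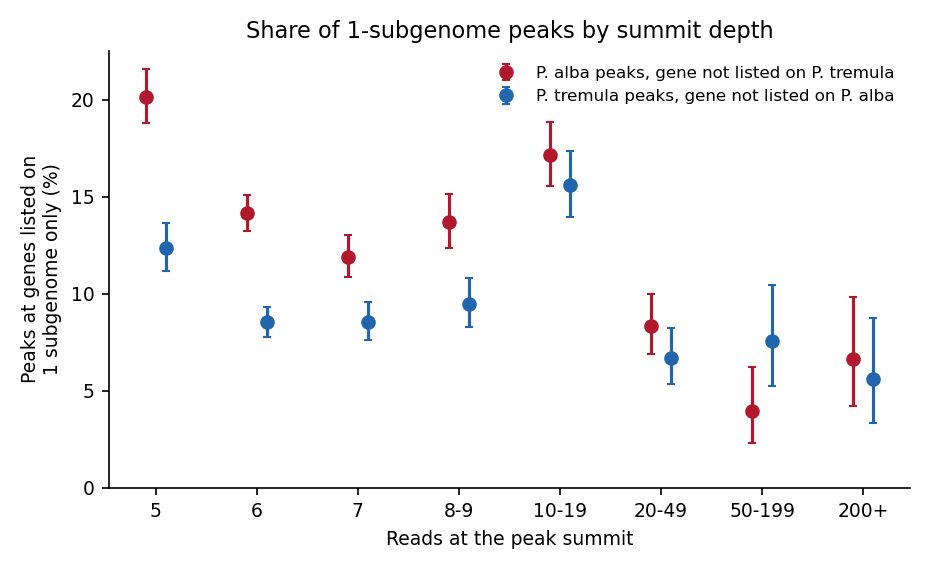
Share of peaks at genes named in 1 list only, in percent, by reads at the summit, for P. alba (red) and P. tremula (blue), with 95% exact binomial intervals over peaks. The P. alba share falls from 20.2% at 5 reads to 11.9% at 7 reads, is 17.2% at 10 to 19 reads and is lowest, at 3.94%, at 50 to 199 reads.

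Most of the genes had a single peak. Exactly 1 P. alba peak was listed at 2205 of the 2426 genes (90.9%), against 67.7% of the genes named in both lists. From the side of the genes, 22.9% of those with 1 P. alba peak were missing from P. tremula, 6.35% of those with 2, and none of the 77 genes with more than 5. A gene with more peaks has more chances of being named in either list, so this difference is tied to the choice and was not tested. The other 506 peaks shared 221 genes, and peaks of 1 gene are not independent. The genes were somewhat shorter, with a median annotated length of 2338 bp against 2685 bp. The peaks stood farther from others: the median distance to the next summit of the P. alba list was 10.4 kb (25th to 75th percentile 4.42 to 20.6 kb), against 4.89 kb (1.66 to 12.0 kb). The P. tremula peaks at genes missing from P. alba were alike in all 3 respects. Of their genes 90.5% had 1 peak, the median gene length was 2079 bp and the median spacing 11.7 kb.

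Peaks can be missing from a gene because the same site was assigned to a neighbouring gene on the other sequence. This was examined by position. For each summit the distance from the start of the nearest other gene with coordinates in both lists was taken, and the P. tremula summit closest to that distance from the same gene was found. Among 2657 peaks with such a gene, 10 (0.376%, 0.181 to 0.691%) had a P. tremula summit within 100 bp of the matching position, and 89 (3.35%) within 2 kb. Of the other P. alba peaks, searched in the same way from a gene other than their own, 71.1% had one within 100 bp and 90.3% within 2 kb. The median distance to the nearest P. tremula summit was 14.2 kb (25th to 75th percentile 7.56 to 26.0 kb), against 0.048 kb in the other peaks. The contrast follows in part from the choice, since 2 summits at 1 place are mostly assigned to 1 gene. Listing of the same site under another gene on P. tremula was thus measured at 10 of the peaks when a distance of 100 bp was set. The number depends on that distance: a P. tremula summit lay within 500 bp at 23 peaks and within 1 kb at 37.

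**Figure D2:**
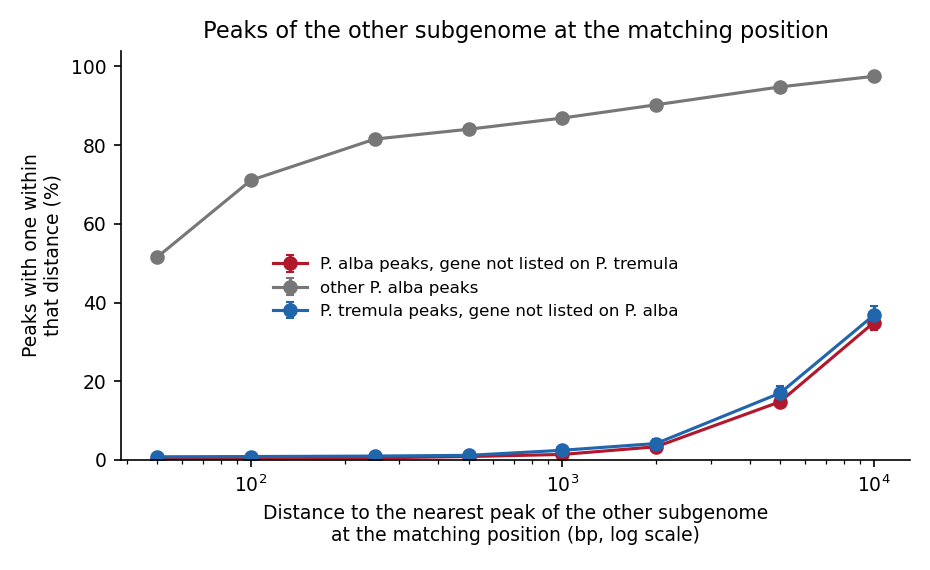
Share of peaks, in percent with 95% exact binomial intervals, that had a summit of the other list within a given distance (bp, log scale) of the matching position. At 100 bp the P. alba peaks at genes missing from P. tremula (red) reach 0.376% and the other P. alba peaks (grey) 71.1% of theirs, and at 10 kb the values are 34.9% and 97.5%. P. tremula peaks at genes missing from P. alba (blue) run close to the red line, with 0.859% at 100 bp.

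At the 10 sites with a matching P. tremula summit, 4 (40%, 12.2 to 73.8%) had the same number of reads in both lists, against 8812 of 11475 (76.8%, 76.0 to 77.6%) of the other P. alba peaks matched within 100 bp. On chromosome 1 the peak at 12642261 to 12642616 held 68 reads with a fold of 8.23, and its match, 35 bp from the expected place, held 66 reads with a fold of 7.80 and was assigned to another gene. On chromosome 11 the peak at 3860225 to 3860492 lay in the last exon of a neighbouring gene and held 10 reads, as did its match on P. tremula. The greatest disparity was on chromosome 7, at 10268192 to 10268459, where an exon peak of 558 reads had a match of 284. These examples were picked after their values were seen.

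Position relative to genes was the first tested property. Distal intergenic peaks, the authors' class for sites away from genes, made up 29.8% (28.1 to 31.6%) of the peaks at genes missing from P. tremula and 26.5% (25.8 to 27.2%) of the other P. alba peaks. The odds ratio was 1.18 (1.08 to 1.29, p = 0.000348 by Fisher's exact test, two-sided, 0.00174 after Benjamini-Hochberg adjustment over 15 position measures). Summits inside the gene were less frequent, at 34.0% against 38.5% (odds ratio 0.825, 0.757 to 0.899, p = 9.49e-06 by Fisher's exact test, adjusted 7.12e-05). Exon peaks outside the promoter class were less frequent as well, at 4.32% against 5.81% (odds ratio 0.731, adjusted p = 0.00505 by Fisher's exact test). Summits past the gene end were more frequent, at 23.9% against 21.2% (odds ratio 1.17, adjusted p = 0.00578 by Fisher's exact test). Whether a summit counts as inside or past a gene depends on gene length. The genes of this group were shorter, with a median of 2338 bp against 2685 bp, and the part of gene length was not tested. Summits over 10 kb from the start were less frequent, at 9.07% against 10.6% (odds ratio 0.841, adjusted p = 0.0393 by Fisher's exact test), so the added distal peaks were near ones: the median distance of a distal summit from its gene start was 6848 bp against 7882.5 bp. At genes with 1 peak the distal shares were 26.1% and 16.4% (odds ratio 1.81, 1.61 to 2.02, p = 1.16e-23 by Fisher's exact test). Without the 1515 peaks whose gene stood next to a P. tremula-listed gene in identifier order, the distal odds ratio was 1.04 (p = 0.542 by Fisher's exact test). Such peaks were removed from this group only and kept among the others, of which 61.6% had such a neighbour. Whether the distal difference rested on the removed peaks was therefore not tested.

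The promoter class, which in these lists reaches 3 kb to either side of a gene start, did not separate the groups. It held 1600 of the peaks, 59.0% (57.1 to 60.9%), against 60.9% (60.2 to 61.7%) of the others (odds ratio 0.924, 0.851 to 1.00, p = 0.0647 by Fisher's exact test, adjusted 0.117). Of these, 774 lay within 1 kb of the start, 472 at 1 to 2 kb and 354 at 2 to 3 kb. Within 250 bp of a start lay 290 summits, 10.7% (9.56 to 11.9%), against 12.0% (11.5 to 12.5%) of the other peaks (odds ratio 0.881, p = 0.0577 by Fisher's exact test, adjusted 0.117). Restricted to genes with 1 peak the promoter difference passed the test, at 62.3% of 2205 against 70.8% of 7428 peaks (odds ratio 0.681, 0.616 to 0.752, p = 7.62e-14 by Fisher's exact test). The fullest 250 bp bin was the first past the start in both groups, with 163 of the peaks (6.01%) and 1090 of the others (6.70%), and the bin before the start held 127 (4.68%) and 852 (5.24%).

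**Figure D3:**
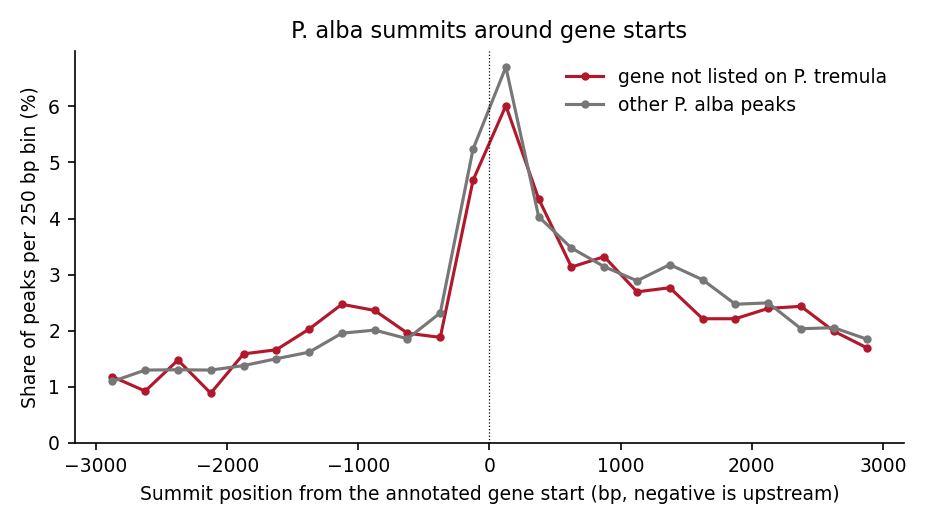
Share of P. alba peaks, in percent per 250 bp bin, by summit position from the annotated start of the assigned gene (bp, upstream negative). Both groups are highest in the first bin past the start, at 6.01% for peaks at genes missing from P. tremula (red) and 6.70% for the others (grey).

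The distal difference was one of shallow peaks. Below 10 reads, distal peaks made up 25.2% of the 2218 peaks at genes missing from P. tremula and 19.8% of the 12684 others (odds ratio 1.37, 1.23 to 1.52, p = 9.99e-09 by Fisher's exact test). From 10 reads on, the shares were 50.7% of 493 and 50.4% of 3580 (odds ratio 1.01, 0.837 to 1.22, p = 0.924 by Fisher's exact test). The odds ratios of the 2 depths differed by a factor of 1.35 (95% interval 1.09 to 1.68). The promoter shares were 62.8% and 65.9% below 10 reads (odds ratio 0.876, 0.797 to 0.962, p = 0.00580 by Fisher's exact test), and 41.8% and 43.2% from 10 reads on (odds ratio 0.942, 0.779 to 1.14, p = 0.561 by Fisher's exact test). For promoters the odds ratios of the 2 depths had a ratio of 0.929 (0.751 to 1.15), which includes 1. The split at 10 reads was chosen after seeing the data.

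**Figure D4:**
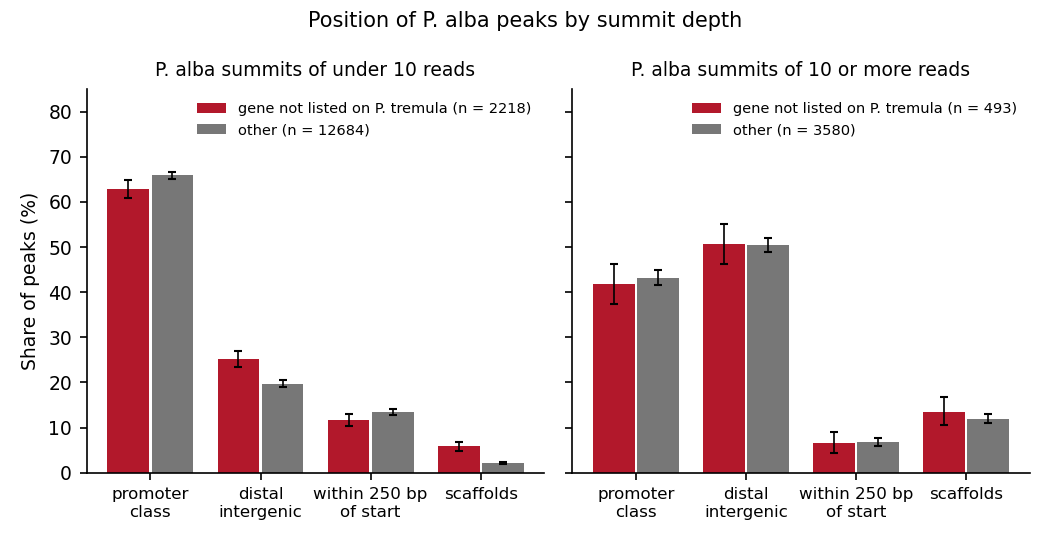
Share of P. alba peaks, in percent with 95% exact binomial intervals, in 4 position classes, for peaks at genes missing from P. tremula (red) and the others (grey), below 10 reads (left) and from 10 reads on (right). Distal peaks differ below 10 reads, at 25.2% and 19.8%, and are level from 10 reads on, at 50.7% and 50.4%.

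Sequences outside the 19 chromosomes were the clearest locations of these peaks. On the unplaced scaffolds, 196 of 892 P. alba peaks (22.0%, 19.3 to 24.8%) were at genes missing from P. tremula, so scaffolds held 7.23% of the peaks against 4.28% of the others (odds ratio 1.74, 1.48 to 2.05, p = 2.70e-10 by Fisher's exact test, adjusted 5.40e-09 over 20 sequences). The shares were 5.86% and 2.11% below 10 reads (odds ratio 2.90, 2.34 to 3.59, p = 1.17e-19 by Fisher's exact test), and 13.4% and 12.0% from 10 reads on (odds ratio 1.14, 0.860 to 1.50, p = 0.378 by Fisher's exact test). The scaffold peaks were spread over 86 scaffolds, with at most 9 on any of them, and 31 lay on scaffolds where the P. tremula list had no peak at all. Such scaffolds were 23 of the 179 with a P. alba peak. On them every P. alba peak belongs to this group by the choice itself, and these peaks were kept in the test. In the P. tremula list 155 peak numbers, and in the P. alba list 187, belong to no peak analysed here, none of them between 2 chromosome peaks. Their part in the scaffold result was not tested.

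Among the chromosomes, 4 departed from the rest. Chromosome 19, which carries the sex-determining region in poplars, had the highest share, with 130 of 604 peaks (21.5%, 18.3 to 25.0%, odds ratio 1.68, p = 1.09e-06 by Fisher's exact test, adjusted 1.09e-05). Chromosome 17 followed with 133 of 663 (20.1%, 17.1 to 23.3%, odds ratio 1.53, adjusted p = 0.000175 by Fisher's exact test). Chromosome 2 was low, with 141 of 1339 (10.5%, 8.94 to 12.3%, odds ratio 0.690, adjusted p = 0.000175 by Fisher's exact test), and chromosome 12 lowest, with 59 of 624 (9.46%, 7.28 to 12.0%, odds ratio 0.618, adjusted p = 0.00119 by Fisher's exact test). The other 15 chromosomes ran from 12.2% to 16.2%, and none passed the test. Counted by genes rather than peaks, the same 4 chromosomes and the scaffolds passed, from 12.5% of genes on chromosome 12 to 30.4% on the scaffolds. Below 10 reads chromosomes 19 and 17 reached 23.6% and 22.2%. From 10 reads on, with fewer peaks, no sequence passed the adjusted test. The nearest were chromosome 10 at 30 of 147 peaks (20.4%, adjusted p = 0.0589 by Fisher's exact test), chromosome 19 at 37 of 210 (17.6%, adjusted 0.109) and chromosome 2 at 15 of 218 (6.88%, adjusted 0.109). Odds ratios of chromosomes 19, 17, 2 and 12 were 1.60, 1.25, 0.522 and 0.497 there, against 1.80, 1.67, 0.708 and 0.640 below 10 reads. Whether the chromosome departures differed by depth was not tested. Peaks at genes missing from P. alba took 14.3% of the P. tremula peaks on chromosome 19, 16.9% on chromosome 17 and 16.4% on scaffolds, against 9.84% over the P. tremula list. They took 6.23% on chromosome 2 and 9.98% on chromosome 12, so the low share of chromosome 12 was not seen there.

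**Figure D5:**
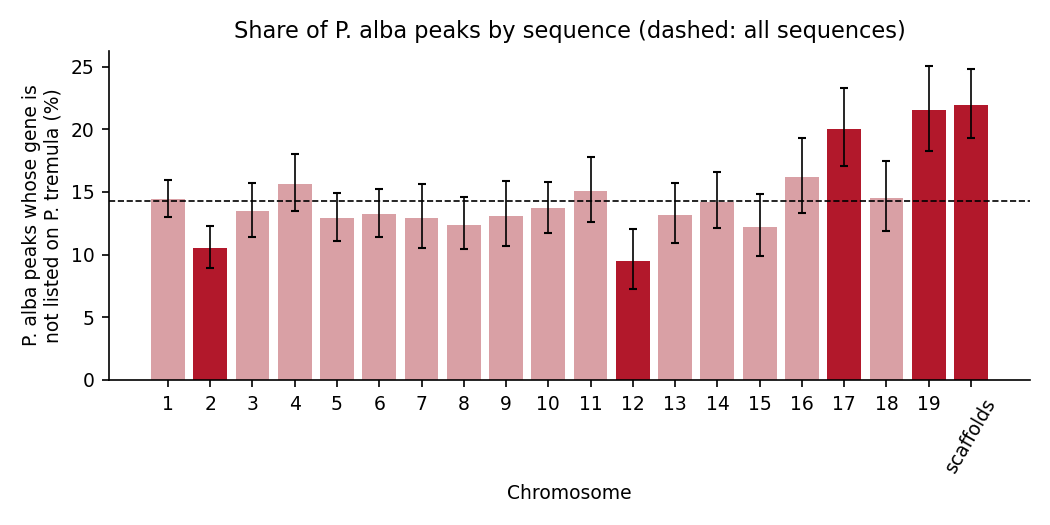
Share of P. alba peaks at genes missing from P. tremula, in percent with 95% exact binomial intervals, for each chromosome and the scaffolds together. The dashed line is the share over all sequences (14.3%), and dark bars passed the adjusted Fisher test: chromosomes 19 (21.5%), 17 (20.1%), 2 (10.5%) and 12 (9.46%), and the scaffolds (22.0%).

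Along the sequences some of these peaks stood alone, and the rest came in rows, most of them short. Of the 2711 peaks, 1402 (51.7%) had P. alba peaks of genes shared with P. tremula, or a sequence end, on both sides. Rows of 2 peaks numbered 327, rows of 3 numbered 109 and rows of 4 numbered 37. Rows of 5 or more in succession numbered 30 and held 180 peaks. In the P. tremula peaks at genes missing from P. alba, 1003 (59.8%) stood alone. The share that random order would leave alone was not computed. The longest was on chromosome 10, from 2301828 to 2776700, where 11 successive P. alba peaks over 474.9 kb, at 9 genes, were all of this kind. Their summits held 5 to 46 reads (median 7), their folds ran from 2.92 to 5.62, and 8 of them had q at or under 0.05. Between the flanking shared genes the P. tremula list had 4 peaks, none above 8 reads. The surrounding window of 1 Mb held 14 such peaks among 23 (60.9%), the highest share of 392 windows with at least 20 peaks, whose median was 14.0%. On P. tremula the longest row of peaks at genes missing from P. alba had 7.

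Further rows of 8 peaks lay on chromosomes 14, 18 and 19. On chromosome 19 a pair of them stood close together, from 13375642 to 13406942 and from 13457860 to 13511905. Each lay at 3 genes, and by the choice all P. alba peaks of 1 gene are in the group together. Summits held 6 to 14 reads in the first and 5 to 12 in the second. Between the genes flanking the first P. tremula had no peak, and between those flanking the second it had 1, of 15 reads, deeper than any summit of that row. On chromosome 18 the row from 728877 to 974417, at 5 genes, held 5 to 22 reads. P. tremula had 3 peaks between the genes flanking it, the deepest with 34 reads. On chromosome 14 the row ran from 16614819 to 16730261 at 4 genes with successive identifiers, 7 of its 8 peaks were distal, and P. tremula had 1 peak of 7 reads between the flanking genes. It included Potri.014G187500, at which 5 P. alba peaks of 5 to 30 reads lay 16075 to 26222 bp upstream of the start. A second gene with 5 peaks was Potri.T055900 on scaffold_50, with summits of 7 to 29 reads, all distal. The largest number of peaks at any of these genes was 5, and 12 genes had 4.

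Genes with successive identifiers were sometimes missing from P. tremula together. Of 2236 runs, 2067 held a single gene, 153 held 2, 12 held 3, 3 held 4 and 1 held 5. The P. tremula genes missing from P. alba formed 1436 runs, of which 1364 held 1 gene, 70 held 2 and 2 held 3. Whether genes of the group adjoin more often than by chance was not tested. The run of 5 lay on chromosome 19 at 3029924 to 3099964, with 6 peaks of 5 to 15 reads and folds of 2.78 to 4.02, of which 5 were distal. The runs of 4 lay on chromosome 1 at 5051803 to 5072742, with 4 peaks of 5 to 7 reads, on chromosome 14 at 11602189 to 11654263, with 4 peaks of 5 to 7 reads, and at the row of 8 peaks on chromosome 14 described above. A neighbouring gene listed on P. tremula was common, though less so than for the other peaks. Of the peaks, 55.9% (54.0 to 57.8%) were at a gene with a P. tremula-listed gene 1 identifier step away, against 61.6% (60.9 to 62.4%) of the other P. alba peaks. Within 5 steps the shares were 95.6% and 97.1%.

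High folds were few among these peaks. A fold of 5 or more was reached by 113 of them (4.17%, 3.45 to 4.99%), where the whole P. alba list had 8.21%, and a fold of 10 or more by 7. The highest, 13.4, ranked 29th in the P. alba list. Of the 107 peaks of fold 5 or more with a gene to measure from, 4 had a P. tremula summit within 2 kb of the matching position and 27 within 10 kb. Over the whole group, where the choice itself removed most such matches, these shares were 3.35% and 34.9%.

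The 20 peaks of highest fold, from 7.46 to 13.4, belonged to 20 genes on 9 chromosomes, and 12 were in the promoter class, 6 distal and 2 downstream. All had q at or under 0.05, and 1 had a P. tremula summit within 2 kb of the matching position, where the whole group had 3.35%. The highest was on chromosome 13 at 12126731 to 12126865, with 31 reads over a background of 1.39 reads. Its assigned gene, Potri.013G107800, starts 5901 bp beyond the summit, and the authors' class places it downstream of a gene. The nearest P. tremula summit was 4.26 kb from the matching position and held 5 reads.

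Upstream of gene starts lay 6 of the 12 promoter peaks. The strongest of these, on chromosome 15 (2799712 to 2799794) and 2514 bp before a gene start, held 24 reads with a fold of 12.6. A peak 613 bp upstream on chromosome 1 (34922923 to 34923073) held 31 reads with a fold of 10.4. Chromosome 6 had 3 of them: 531 bp upstream at 13485761 to 13486119 with a fold of 9.02, 234 bp upstream at 1953582 to 1953659 with 8.55, and 1712 bp upstream at 15030129 to 15030218 with 8.04. These 5 had no P. tremula summit within 2 kb, the nearest being at 2.62 kb for the chromosome 1 peak and at 15.5 kb or more for the others. The sixth was the chromosome 1 peak of 68 reads that had a matching summit assigned to another gene.

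At or past the start lay the other 6 promoter peaks, and they included the deepest of the 20. On chromosome 5 a peak of 301 reads (10671112 to 10671436, fold 7.46, 981 bp past the start) and a peak of 105 reads (10675625 to 10676155, fold 11.1) belonged to genes with successive identifiers. The nearest P. tremula summits were 24.7 and 19.9 kb from the matching positions. Another peak on that chromosome (14790275 to 14790530) held 350 reads with a fold of 10.05, over a background of 33.9 reads, and the nearest P. tremula summit stood 3.25 kb away. On chromosome 4 a peak 198 bp past the start of a gene (3305243 to 3305332) held 35 reads with a fold of 11.7. The remaining ones were on chromosome 6 at 4068963 to 4069042 (24 reads, fold 8.12) and on chromosome 15 at 12856950 to 12857222 (14 reads, fold 7.54).

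Away from promoters, the strongest peak of the distal class was on chromosome 14 at 1186045 to 1186261, with 29 reads and a fold of 10.5, 5547 bp upstream of its gene. The other distal peaks were on chromosome 1 at 21832818 to 21832911 (fold 9.22), chromosome 2 at 4778109 to 4778216 (9.05), chromosome 11 at 7322117 to 7322287 (8.31), and chromosome 4 at 7595979 to 7596125 (7.97) and 9914663 to 9914862 (7.67). Their summits held 17 to 21 reads, and the nearest P. tremula summits were 14.1 to 68.3 kb from the matching positions. The second downstream peak was on chromosome 6 at 6740985 to 6741218, with 24 reads and a fold of 7.56.

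Depth and fold picked out different peaks. Summits of 50 reads or more numbered 39, which is 1.44% (1.02 to 1.96%), where the whole P. alba list had 4.02%. Of these, 29 were in the promoter class and 9 were distal. Their median background was 52.9 reads and their median fold 3.73. The deepest was at Potri.011G074200 on chromosome 11 (7186067 to 7186600), with 1931 reads and a fold of 2.45 over a background of 787 reads. A P. tremula summit of 2029 reads, assigned to the neighbouring gene, lay 225 bp from the matching position. The next 4 held 1474 reads on chromosome 11 (7180618 to 7181470), 983 and 878 reads on chromosome 13 (14817330 to 14818568 and 14767764 to 14768032), and 883 reads on scaffold_81 (71838 to 72036). Their folds ran from 2.35 to 3.31, and P. tremula summits lay 0.368 to 2.39 kb from the matching positions. All 5 thus had a listed P. tremula peak within 2.39 kb, under another gene.

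A P. tremula summit lay nearby more often than over the whole group, and some deep peaks had none near. Of the 39, 10 had one within 2 kb of the matching position, where the whole group had 89 of 2657 (3.35%), and 20 had one within 10 kb, where the group had 34.9%. The other 19 had none within 10 kb. On chromosome 4 a peak 455 bp past the start of its gene (13095359 to 13095493) held 591 reads with a fold of 4.26, and the nearest P. tremula summit was 18.4 kb away. On chromosome 14 a peak 749 bp past the start (18579624 to 18579790) held 532 reads with a fold of 6.04, and the nearest was 18.97 kb away with 5 reads. These 2 were named after their values were seen. At none of the 39 was the background at its floor of 0.989 reads.

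Against the mirror group, the peaks at genes missing from P. alba, the promoter share was higher, at 59.0% against 53.2% (50.7 to 55.6%) of the 1676 P. tremula peaks (odds ratio 1.27, 1.12 to 1.43, p = 0.000148 by Fisher's exact test, adjusted 0.000738 over 15 measures). The distal share was lower, at 29.8% against 37.1% (34.8 to 39.5%, odds ratio 0.721, 0.634 to 0.820, adjusted p = 4.96e-06 by Fisher's exact test). Summits inside the gene were more frequent, at 34.0% against 26.8% (odds ratio 1.41, 1.23 to 1.61, adjusted p = 4.96e-06 by Fisher's exact test). Median gene length differed too, at 2338 bp against 2079 bp, and its part in the share inside the gene was not tested. Summit depth moved with this comparison, since 54.6% of the P. alba group and 46.8% of the P. tremula group held 5 or 6 reads, and its part was not tested. The promoter call ended from 10 reads on (odds ratio 1.14, p = 0.343), within 1 kb of the start (1.13, p = 0.0764) and without peaks next to an identifier listed on the other sequence (1.17, p = 0.104), all by Fisher's exact test. The lists also differ in length, at 18975 and 17040 peaks, and share most of their peaks.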

How the data were processed

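ChIP-seq peak lists for the P. alba and P. tremula sequences were analysed. The submitters' processing notes list the aligner BWA (0.7.17.2), the peak caller MACS2 (2.2.7.1) and the annotation package ChIPseeker (1.18.0). Per the file headers, the deposited columns hold the summit pileup (a read coverage signal), the fold enrichment (a ratio over local background), −log10 p and q values, coordinates and the assigned gene. Not given in the sources used here are calling options, build, library depth, pooling and use of the inputs. Every peak name in the authors' lists carries a single tag that matches no library, so no value belongs to a replicate.

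Each peak stood in 2 rows and was counted once. Local background was computed as (pileup + 1) / fold − 1. Summit distances from gene starts were computed with strand from the deposited gene coordinates. Fisher's exact test (two-sided) compared shares, which carry exact 95% Clopper-Pearson intervals; odds ratios and ratios of odds ratios carry normal-approximation intervals. Adjustment was by Benjamini-Hochberg, with a threshold of 0.05. Positions were matched through 11423 transcript models with coordinates in both lists, whose starts differed by -7545 to 4013 bp. The search was tested on simulated data, a copy of the P. alba list shifted by small random steps with some peaks removed. No P. tremula coordinates entered that test, so it does not show how well the search does between the real lists. Python 3.11.15, pandas 2.3.3 and SciPy 1.17.1 were used.

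The peaks named were the 20 of highest fold, the 5 of highest pileup, the genes with most peaks and the longest runs of successive identifiers; ties at the last place were counted and not named. The longest rows of successive peaks, examples of sites listed under another gene and 2 further deep peaks were named after their values were seen. The group, these rules and the comparisons were chosen with earlier results of these data known. The lists pair no identifier with a gene name, so 0 of 6 gene lists (lignin, xylan and cellulose synthesis, secondary wall regulators, and iron regulators and transport) could be matched. For the same reason 4 identifiers are printed. No genome was used here, and no sequence is shown.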

Additional observations from a re-analysis of the deposited data

Results flagged for a closer look

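The promoter share of peaks at genes named in 1 list only, set against the other peaks of the same list, differed between the subgenomes. The odds ratio was 0.924 on P. alba and 0.705 on P. tremula, a ratio of 1.31 (95% interval 1.15 to 1.50). For distal peaks the odds ratios were 1.18 and 1.69, a ratio of 0.696 (0.606 to 0.799), and for scaffolds 1.74 and 1.87, a ratio of 0.931 (0.724 to 1.20). These intervals were computed as if the 2 odds ratios were independent, while the lists share most of their peaks. How well they cover even counting error is therefore not known, and the cause was not tested.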

How the results depend on the processing

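Of 84 alternative values, 50 stayed on the same side of their limits and 16 moved. Another 11 came to pass their test, 6 no longer passed it and 1 changed direction. Passing here means an unadjusted Fisher's exact p below 0.05, and the causes were not tested. The group of 2711 peaks became 1661 with q at or under 0.05 and any P. tremula peak still counting, 493 with 10 or more reads, and 1196 without peaks next to a P. tremula identifier, each by keeping fewer peaks; with that q in both lists it was 2428. The promoter odds ratio of 0.924 passed the test at q at or under 0.05 in both lists (0.890) or for the group alone (0.820), at folds from the median up (0.748), at genes with 1 peak (0.681) and with the strongest peak of each gene (0.789), and was reversed to 1.07 (Fisher's exact p = 0.269) without peaks next to a P. tremula identifier. Under the first 5 of these settings the share within 250 bp of a start also passed. Its odds ratios were 0.865, 0.845, 0.827, 0.724 and 0.778, and 0.872 without peaks within 2 kb of a P. tremula summit. The unadjusted Fisher's exact p values were 0.0421 and 0.0482 for the first 2 and 0.0431 for the last. The distal odds ratio of 1.18 no longer passed without peaks next to a P. tremula identifier (1.04) or from 10 reads on (1.01), and was larger at folds from the median up (1.51) and at genes with 1 peak (1.81). In comparisons with the other P. alba peaks, peaks next to a P. tremula identifier were removed from this group only. The same holds for peaks within 2 kb of a P. tremula summit. What the removed peaks contributed to the promoter, start and distal shares was therefore not tested. The scaffold odds ratio of 1.74 no longer passed from 10 reads on (1.14). The promoter difference between the subgenome groups (1.27) did not pass without peaks next to an identifier listed on the other sequence (1.17), for promoters within 1 kb (1.13) or from 10 reads on (1.14). The median fold of 3.44 was 3.52 under either q setting, 3.71 from the median fold up and 3.63 from 10 reads on, and the median pileup of 6 reads was 7, 7, 7 and 14. The share with a P. tremula-listed neighbour (55.9%) was 46.5% at q at or under 0.05 in both lists, 41.4% from the median fold up, 58.6% from 10 reads on, 74.9% within 2 steps and 95.6% within 5. The settings of 10 reads and of 2 kb were chosen after seeing the data. Most summits held under 10 reads, which limits any statement on absence. No paired analysis was possible because no peak value belongs to 1 library, so leaving out a replicate could not be done either.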
